A study of Mus musculus with 6 samples.

Results

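Myc, Mycn and Mycl are transcription factors that bind DNA as partners of Max, chiefly at the sequence CACGTG, known as the E-box. The Mxd proteins compete for Max and repress the same sites. In embryonic stem cells Myc proteins support proliferation and self-renewal, and their best-known targets are the genes that build ribosomes and nucleotides. Ribosomes are assembled in the nucleolus, where RNA polymerase I makes the precursor of ribosomal RNA, small nucleolar RNPs modify and help cleave it, and assembly factors join it to ribosomal proteins. The 32 genes described here are 6 of the Myc and Max network (Myc, Mycn, Mycl, Max, Mxd1 and Mxd3) and 26 that serve these later steps. They were taken by exact gene symbol from an array that measured 18193 named genes, and each gene was read on its brightest probe set. All 32 lay above the median level of the named genes.

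The samples were R1 mouse embryonic stem cells, strain (129X1 x 129S1)F1, with 3 arrays for the Sirt1-/- genotype and 3 for Sirt1+/+. The Sirt1 protein removes acetyl groups from other proteins and uses NAD to do so. Both were cultured on gelatin in high-glucose serum medium with LIF, a cytokine that keeps them undifferentiated. The labels name 1 source of cells per genotype and do not say how many clones were used or how the deletion was made. What the absence of Sirt1 did and what else distinguishes the sources cannot be told apart. Separate cultures are not stated for the 3 samples of a genotype either, so the p-values cover the spread among these arrays alone, which may be technical. Values are log2 RMA levels, a change is knockout minus wild type on that scale, and the number of arrays limits the precision.

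Sirt1 itself read 8.02, 7.94 and 8.20 in knockout and 10.12, 10.13 and 10.23 in wild type, and it fell by 2.11 on the log2 scale in knockout (SE 0.08; adjusted p = 3.98e-05 in limma). Its mean of 8.05 in knockout, on 1 probe set, was still above the median level of named genes (5.83). By exact permutation of the arrays the two-sided p was 0.1, and a design of 3 against 3 can give none smaller. Arrays of a genotype correlated at 0.997 to 0.998 and those of different genotypes at 0.989 to 0.991, across genes, which are no independent replicates. Over all named genes 12.5% were higher and 17.5% lower in knockout at a limma adjusted p under 0.05, and above the median level 21.5% and 26.5%. Of 12 markers of stem cell identity 1 was higher (8.3%) and 7 were lower (58.3%) in knockout. The mean log2 level of these markers was 11.30 to 11.34 in knockout and 11.52 to 11.57 in wild type, above the median level of named genes (5.83) in every array. Of 14 markers of primitive or visceral endoderm 10 were lower (71.4%) and 0 higher (limma; 0 higher also at an unadjusted p under 0.05). Their mean log2 level was 5.37 to 5.51 in knockout and 6.41 to 6.44 in wild type. Of 14 fibroblast markers, which would report feeder cells, 2 were higher (14.3%) and 3 lower (21.4%), near the shares over all named genes. Their mean levels were 4.70 to 4.85 in knockout and 4.86 to 4.90 in wild type. No marker can be called absent from array values. The mean of the fibroblast markers was above the lower quartiles of the arrays (3.16 to 3.24) in every array. Col3a1, chosen after its value was seen, was under them (2.74 in knockout, 2.59 in wild type). The part of these marker differences in the results below was not tested. In such bulk samples fewer cells of a type and less RNA per cell cannot be told apart.

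Because Myc and Max recognise CACGTG, the promoter windows of the genes were searched for it. The windows run from 250 bases before to 50 after the annotated start in RefSeq on GRCm38.p6, the reference strain rather than the strain of these cells. The motif reads the same on both strands. Of the 27 genes with a window 6 (22.2%) held CACGTG, as did 10.25% of the 14367 array genes with a window and 7.15% of all 32851 windows. The 6 stretches, written 5′ to 3′ on the strand of the gene, are shown because they hold CACGTG, which is given in capitals. For Max and Nop2, where the motif starts before the annotated start, the sequence begins at the window's edge and ends at the start or the end of the motif. For the other 4, where it lies past the start, up to 12 bases on each side are given.

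Max, chr12:76962246-76962498, minus strand: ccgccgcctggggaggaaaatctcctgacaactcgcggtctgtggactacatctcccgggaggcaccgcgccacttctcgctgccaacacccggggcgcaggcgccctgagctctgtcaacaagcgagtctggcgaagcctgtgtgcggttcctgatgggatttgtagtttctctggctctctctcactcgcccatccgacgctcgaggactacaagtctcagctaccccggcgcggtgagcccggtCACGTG
Nop2, chr6:125131633-125131882, plus strand: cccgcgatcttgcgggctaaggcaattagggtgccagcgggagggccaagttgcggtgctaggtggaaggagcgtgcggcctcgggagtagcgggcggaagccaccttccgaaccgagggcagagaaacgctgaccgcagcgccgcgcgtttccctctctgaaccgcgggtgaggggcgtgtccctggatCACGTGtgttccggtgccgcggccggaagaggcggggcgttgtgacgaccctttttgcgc
Pes1, chr11:3963965-3963994, plus strand: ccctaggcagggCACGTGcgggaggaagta
Wdr43, chr17:71616220-71616249, plus strand: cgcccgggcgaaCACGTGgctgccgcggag
Utp20, chr10:88826765-88826789, minus strand: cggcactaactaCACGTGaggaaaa
Mybbp1a, chr11:72441355-72441376, plus strand: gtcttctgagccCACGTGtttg

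The motif was found among genes of either direction. Of the genes described here with a window, it was found in 1 of 7 that were higher in knockout (Max). It was also found in 1 of 6 that were lower (Nop2) and in 4 of 14 that did not pass the test. Over array genes with a window, the shares were 14.71% of those higher, 10.98% of those lower and 9.23% of those not called. The groups described here are small, and their difference from these shares was not tested. A match is a description of the letters and not a site of binding, and windows without a match may hold other forms.

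Of the 32 genes, 8 were higher and 6 lower in Sirt1-/- cells at a limma adjusted p under 0.05, and 18 did not pass. The background over all named genes was 12.5% higher and 17.5% lower, 30.0% in all, and among the genes above the median level it was 21.5% higher and 26.5% lower. With 25% higher and 18.8% lower, the shares for the 32 genes were near those of the genes above the median level. That set is not matched to the 32 genes in level. Their levels ran from percentile 50.4 of the named genes (Mxd1) to 99.8 (Npm1), and most lay in the upper part. The 3 knockout values lay wholly above the 3 wild-type values for 11 of the 32 (background 19.1%) and wholly below them for 8 (background 24.7%), 19 in all (59.4%) against a background of 43.8%. Among the genes above the median level 30.7% lay wholly above and 36.5% wholly below, 67.2% in all, which is more than for the 32 genes. The median change was 0.01, against -0.01 over all named genes, and no member changed by 2-fold. The members thus moved in both directions by small amounts, from -0.62 for Polr1b to 0.52 for Gnl3.

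**Figure D1:**
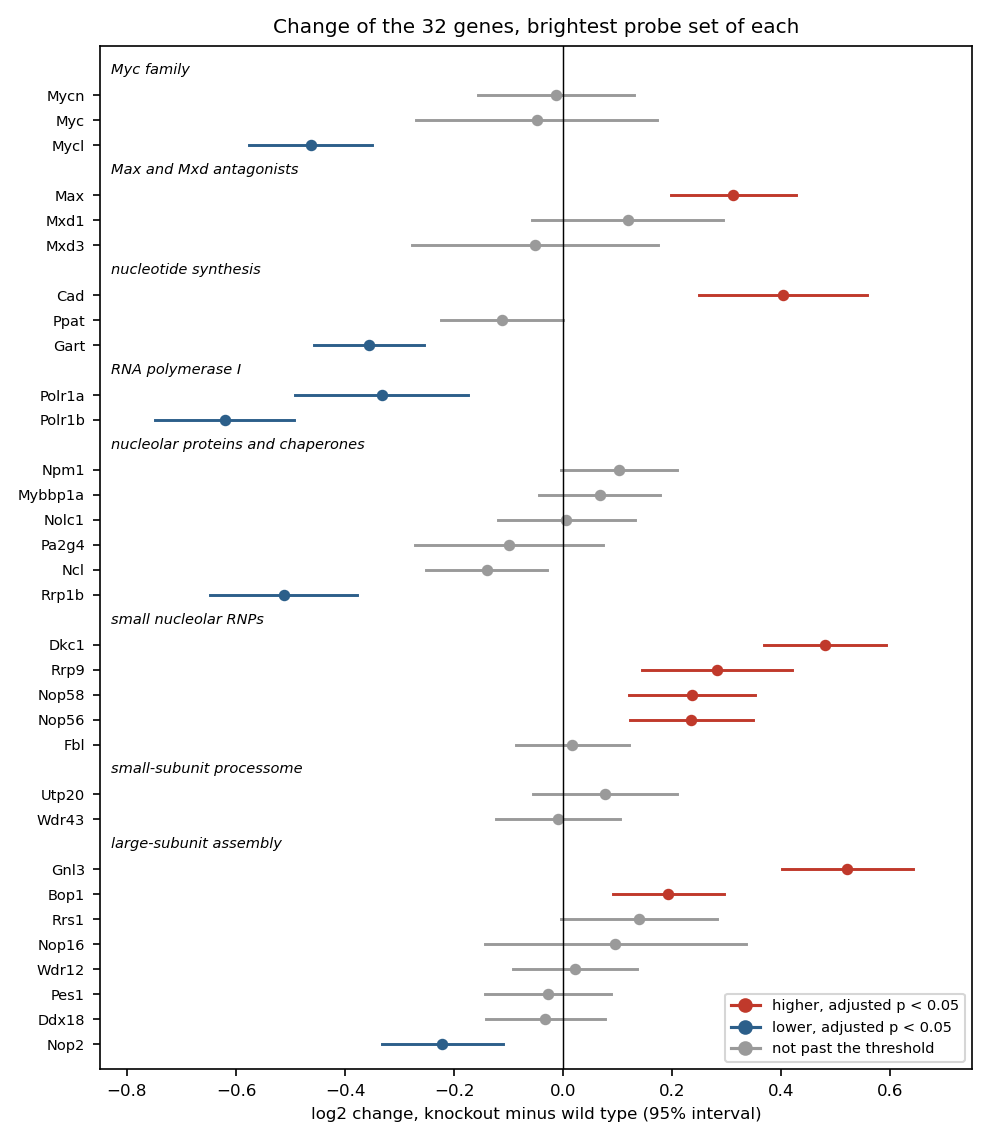
Change of each of the 32 genes by role, as log2 knockout minus wild type on the x axis, with points for the estimate on the brightest probe set and lines for the 95% interval from limma (3 arrays per genotype). Red marks the 8 higher and blue the 6 lower genes, and the small nucleolar RNP genes lie at or right of 0 while both RNA polymerase I genes lie left of it.

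Of the Myc family, Myc and Mycn did not pass the test, and Mycl was lower in knockout. Myc read 6.71, 6.98 and 6.71 in knockout and 6.77, 6.82 and 6.95 in wild type. The genotypes overlapped, with a change of -0.05 (95% interval -0.27 to 0.17; limma adjusted p = 0.760). Mycn, the family member most linked to early embryonic cells, read 9.54, 9.57 and 9.68 in knockout and 9.60, 9.56 and 9.68 in wild type. Its change was -0.01 (95% interval -0.16 to 0.13; limma adjusted p = 0.905), and its other probe sets read 0.07 and -0.16 without passing. Mycl read 6.05, 6.04 and 6.07 in knockout and 6.49, 6.57 and 6.49 in wild type. All knockout values of Mycl were lower, by 0.46 (SE 0.05; limma adjusted p = 0.000695), or 1.38-fold. The other probe sets of Mycl lay below the median of all probe sets (4.53) and read -0.14 and 0.02. With its probe sets averaged the call was lost (-0.20; limma adjusted p = 0.0652).

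Max, the partner that every Myc protein needs to bind DNA, was higher in knockout. It read 7.24, 7.19 and 7.18 in knockout and 6.93, 6.84 and 6.91 in wild type, with no overlap. The change was 0.31 (SE 0.05; limma adjusted p = 0.00354) on its only probe set, whose promoter stretch with CACGTG is printed above. Mxd1 and Mxd3, repressors that pair with Max, did not pass. Mxd1 read 5.92, 5.96 and 5.91 in knockout and 5.88, 5.66 and 5.89 in wild type, a change of 0.12 (limma adjusted p = 0.293). Mxd3 changed by -0.05, with overlapping arrays (limma adjusted p = 0.746).

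The genes of nucleotide synthesis went different ways. Cad, which carries out the first steps of pyrimidine synthesis, read 9.67, 9.70 and 9.80 in knockout and 9.31, 9.24 and 9.41 in wild type. It was higher in every knockout array, by 0.40 (SE 0.06; limma adjusted p = 0.00415), and another bright probe set of Cad rose by 0.52 (limma over all probe sets, adjusted p = 0.00410). Ppat, which starts purine synthesis, read 9.78, 9.80 and 9.83 in knockout and 9.89, 9.96 and 9.89 in wild type. These arrays did not overlap, but the change of -0.11 did not pass (limma adjusted p = 0.127).

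Gart, an enzyme of several purine steps, gave opposite answers on different probe sets. The brightest read 10.35, 10.36 and 10.35 in knockout and 10.71, 10.73 and 10.70 in wild type, a fall of 0.36 on the log2 scale (SE 0.04; limma adjusted p = 0.00130). A probe set of similar brightness read 10.23, 10.14 and 10.18 in knockout and 9.48, 9.47 and 9.49 in wild type, and was 0.71 higher (limma over all probe sets, adjusted p = 0.000367). A further one read 9.70, 9.81 and 9.75 in knockout and 9.24, 9.21 and 9.22 in wild type, and was 0.53 higher (limma over all probe sets, adjusted p = 0.00115). Within each of these probe sets the genotypes were far apart relative to the spread of arrays. The fourth, dimmer probe set read -0.19 and did not pass. The Gart gene is known to give a full-length and a shorter transcript, and the sources used here do not say which of them each probe set reads. With all 4 probe sets averaged, Gart was higher in knockout by 0.17 (limma adjusted p = 0.0269), so no single direction can be given for the gene. Gart was the only one of the 32 genes with probe sets called both higher and lower.

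Polr1a and Polr1b, which encode the subunits that form the active centre of RNA polymerase I, were both lower in knockout. Polr1b read 7.30, 7.27 and 7.33 in knockout and 7.88, 7.88 and 7.999 in wild type. Its fall of 0.62 on the log2 scale (SE 0.05; limma adjusted p = 0.000394), or 1.54-fold, was the largest change among the 32 genes on their brightest probe sets. Polr1a read 7.28, 7.12 and 7.12 in knockout and 7.56, 7.43 and 7.53 in wild type, a change of -0.33 (SE 0.07; limma adjusted p = 0.0102). A further Polr1a probe set fell by 0.34 (limma over all probe sets, adjusted p = 0.0310), while 3 dimmer ones read 0.28, 0.14 and 0.02 and did not pass. Averaged over its 5 probe sets Polr1a no longer passed (-0.05; limma adjusted p = 0.673).

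Among general nucleolar proteins only Rrp1b passed, and it was lower. Rrp1b, a nucleolar and chromatin-bound factor, read 9.22, 9.36 and 9.30 in knockout and 9.80, 9.85 and 9.76 in wild type, a change of -0.51 (SE 0.06; limma adjusted p = 0.000941). Neither of its other probe sets passed (-0.17 and 0.08), and with all of them averaged Rrp1b changed by -0.20 (limma adjusted p = 0.0313). Ncl, the nucleolar RNA-binding protein nucleolin, read 12.86, 12.86 and 12.84 in knockout and 13.02, 12.94 and 13.02 in wild type. All 3 knockout values were lower on this probe set, but the change of -0.14 did not pass (limma adjusted p = 0.0648). Its other probe sets read -0.16, -0.08, 0.11 and 0.21, none past the threshold, and averaged over all of them the change of Ncl was -0.01 (limma adjusted p = 0.935). Npm1, the nucleolar chaperone nucleophosmin, read 13.72, 13.76 and 13.76 in knockout and 13.63, 13.63 and 13.67 in wild type, a change of 0.10 (limma adjusted p = 0.137). Nolc1, a chaperone of small nucleolar RNPs, changed by 0.01 and Mybbp1a, a nucleolar repressor, by 0.07, and neither passed.

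Pa2g4, a growth-linked protein that binds ribosomes, also differed between probe sets. Its brightest read -0.10 with overlapping arrays (limma adjusted p = 0.374). Other probe sets of Pa2g4 rose by 0.34 (limma over all probe sets, adjusted p = 0.0110) and 0.44 (0.00367), and the remaining 2 read -0.21 and 0.13 and did not pass.

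**Figure D2:**
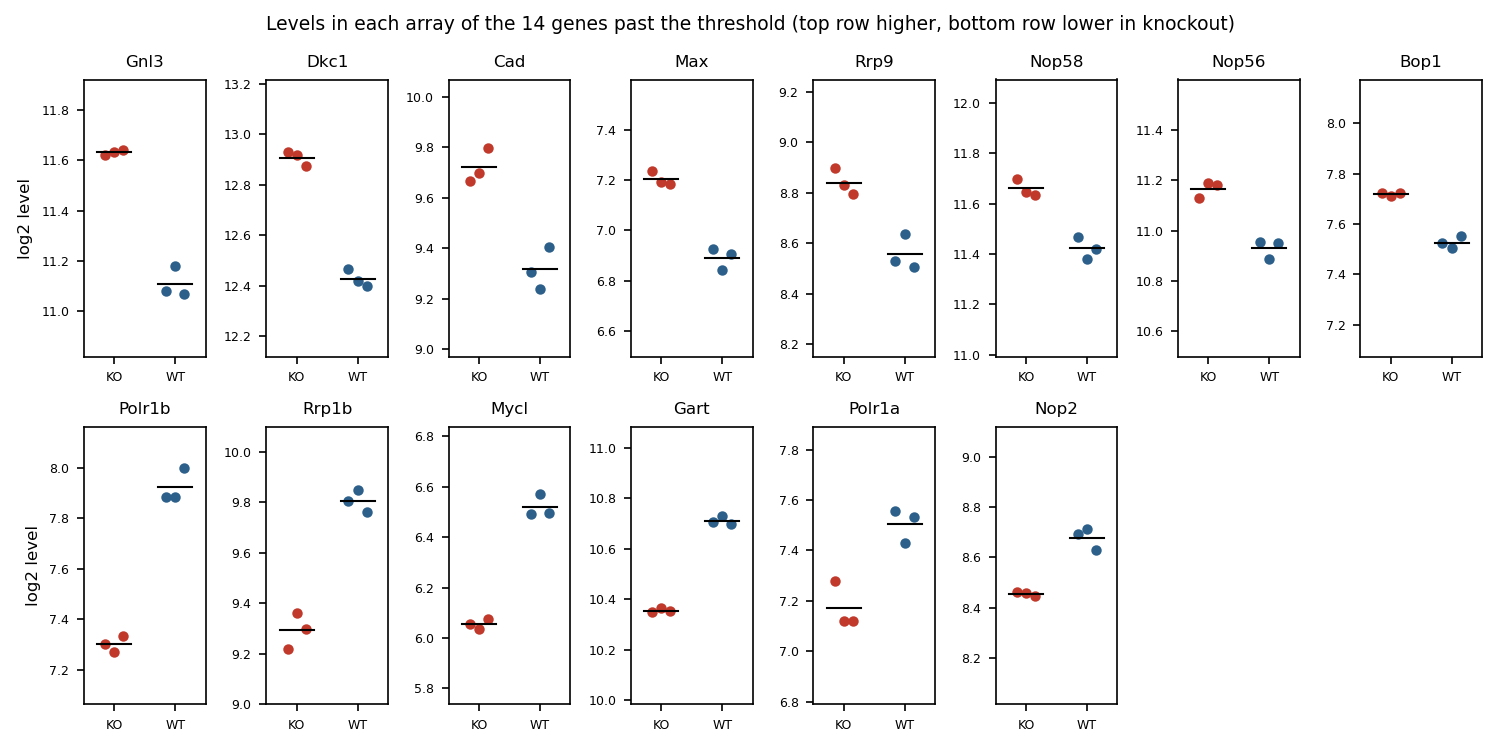
Log2 RMA level in each array of the 14 genes past the threshold, with knockout (KO, red) left of wild type (WT, blue), points in the order of replicates 1 to 3, black bars at the mean, and a y axis of equal span centred on each gene. The genotypes do not overlap in any of the 14 panels, and the distance between the means runs from 0.19 for Bop1 to 0.62 for Polr1b.

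The small nucleolar RNP genes were higher in 4 of 5 cases and lower in 0 (limma; 0 also at an unadjusted p under 0.05). Over all named genes 12.5% were higher and 17.5% lower, and above the median level 21.5% and 26.5%. The group is small, and its difference from these shares was not tested. Dkc1, the enzyme that turns uridine into pseudouridine in ribosomal RNA and also part of telomerase, read 12.93, 12.92 and 12.88 in knockout and 12.47, 12.42 and 12.40 in wild type. It was 0.48 higher (SE 0.05; limma adjusted p = 0.000593), and its other probe sets rose by 0.50 and 0.54. Rrp9, a protein particular to the U3 RNP, read 8.90, 8.83 and 8.79 in knockout and 8.53, 8.64 and 8.51 in wild type, a change of 0.28 (limma adjusted p = 0.0112). Nop56 and Nop58 are paired core proteins of the RNPs that guide methylation of ribosomal RNA.

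Nop56 read 11.13, 11.19 and 11.18 in knockout and 10.95, 10.89 and 10.95 in wild type, a change of 0.24 (limma adjusted p = 0.0102). Its second probe set read 0.12 and did not pass. Nop58 read 11.70, 11.65 and 11.64 in knockout and 11.47, 11.38 and 11.42 in wild type, likewise a change of 0.24 (limma adjusted p = 0.0114). Every knockout array of both genes was above every wild-type array. Fbl, the methyltransferase of the same RNPs, read 11.59, 11.62 and 11.61 in knockout and 11.62, 11.58 and 11.57 in wild type. Its arrays overlapped, with a change of 0.02 (95% interval -0.09 to 0.12; limma adjusted p = 0.828).

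Neither gene of the small-subunit processome, the particle that forms on the growing ribosomal RNA, passed the test. Utp20 changed by 0.08 (95% interval -0.06 to 0.21) and Wdr43 by -0.01 (-0.12 to 0.11), with overlapping arrays.

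Of 8 genes of large-subunit assembly 2 were higher and 1 lower, against 12.5% and 17.5% of all named genes. Gnl3, the nucleolar GTPase nucleostemin known from stem cells, read 11.62, 11.63 and 11.64 in knockout and 11.08, 11.18 and 11.07 in wild type. Its rise of 0.52 (SE 0.05; limma adjusted p = 0.000585), or 1.44-fold, was the largest among the 32 genes on their brightest probe sets. Bop1 read 7.72, 7.71 and 7.72 in knockout and 7.52, 7.50 and 7.55 in wild type, a change of 0.19 (limma adjusted p = 0.0154). Without knockout replicate 3 (limma adjusted p = 0.0522) or wild-type replicate 1 (0.0586) Bop1 no longer passed. Bop1 works in a complex with Pes1 and Wdr12, which changed by -0.03 and 0.02 and did not pass.

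Nop2, a methyltransferase of ribosomal RNA whose promoter stretch is printed above, read 8.46, 8.46 and 8.45 in knockout and 8.69, 8.71 and 8.63 in wild type. It was 0.22 lower on the log2 scale in knockout (limma adjusted p = 0.0122), with all arrays apart, and narrowly missed the threshold without wild-type replicate 1 (0.0507). Rrs1, which helps load an RNP onto the young large subunit, changed by 0.14 (limma adjusted p = 0.137). The helicase Ddx18 changed by -0.03. Nop16, a nucleolar protein of this pathway, changed by 0.10 with the widest interval of the group (-0.14 to 0.34), and neither passed.

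**Figure D3:**
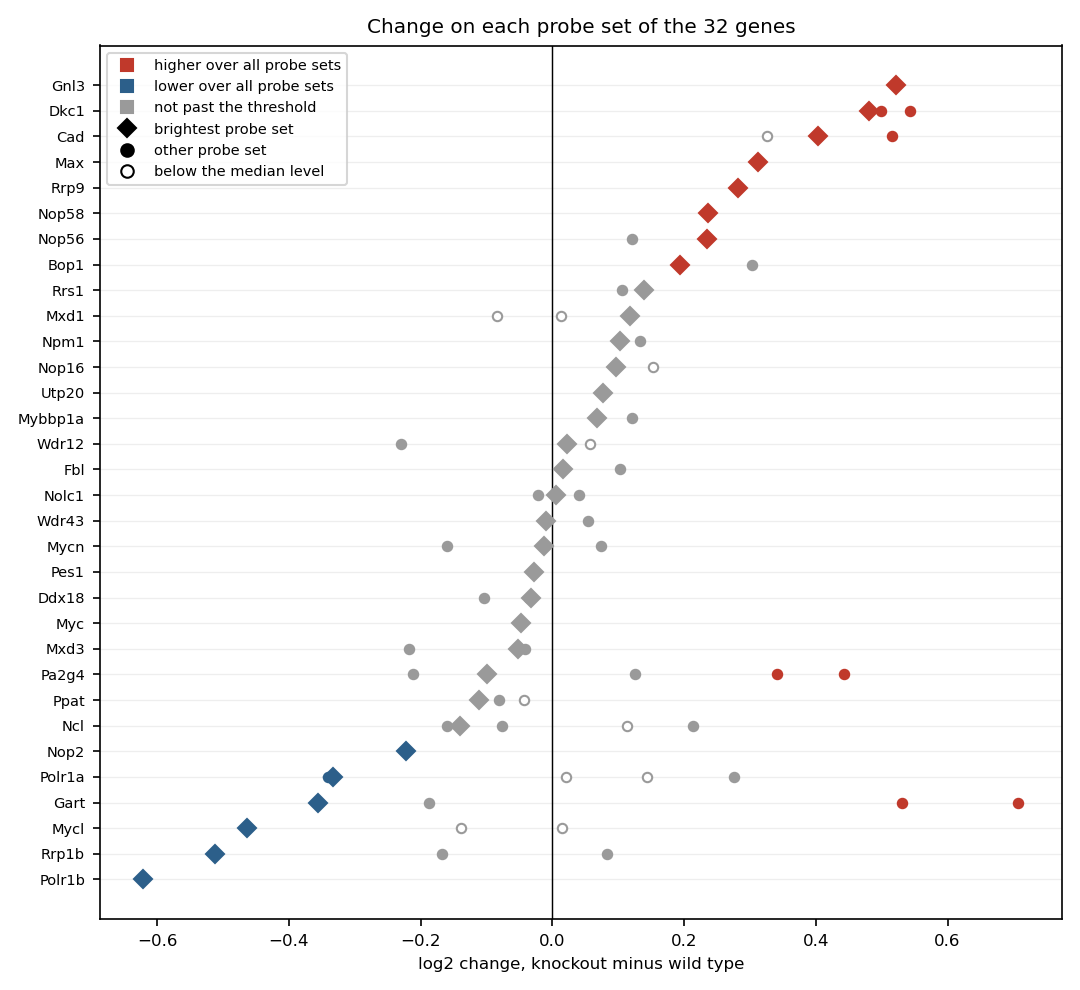
Log2 change, knockout minus wild type, on each of the 78 probe sets of the 32 genes, with diamonds for the brightest probe set of a gene, circles for the others, open symbols for those below the median level of all probe sets, and colour for the call in limma over all probe sets. Gart has blue and red symbols, Pa2g4 has red circles beside a grey diamond, and the 3 Dkc1 symbols lie close together.

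The 32 genes had 78 probe sets, with 8 genes read on 1 probe set and 24 on several. Of the 46 probe sets other than the brightest, 29 had the sign of the brightest one. Of the 34 above the median level, 22 did. The calls of Gnl3, Max, Rrp9, Nop58, Polr1b and Nop2 rest on the only probe set of each gene. Those of Dkc1, Cad and Polr1a were also made, in the same direction, on another probe set of the gene. For Mycl, Rrp1b, Nop56 and Bop1 no probe set but the brightest passed. The other Bop1 probe set read 0.30 (limma over all probe sets, adjusted p = 0.0587).

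The genes are spread over 17 chromosomes, and none lies on chromosome 8, where 313 of 932 named genes (33.6%) were higher in knockout, against 11.3% elsewhere. The median change of the 10 measured genes on either side of a member ran from -0.14 to 0.09. For the 14 genes past the threshold it ran from -0.13 (Max, itself 0.31 higher) to 0.09 (Rrp9). In 10 of these 14 genes the neighbour median had the sign of the gene's own change. It was 0.09 beside a change of 0.28 for Rrp9, 0.05 beside 0.19 for Bop1, 0.07 beside 0.52 for Gnl3 and -0.04 beside -0.62 for Polr1b. The sign was opposite for Max, Cad (-0.02 beside 0.40), Nop58 (-0.04 beside 0.24) and Rrp1b (0.02 beside -0.51). The same count was not made over all named genes past the threshold, so 10 of 14 has no background here. The part of neighbouring genes in these changes was not tested.

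Some genes of ribosome assembly carry small nucleolar RNA genes in their introns, which are released when the host transcript is spliced. By RefSeq on GRCm38.p6, 6 of the 32 genes enclose such RNA genes, counted without regard to strand: Nop56 (5), Nop58 (4), Gnl3 (3), Wdr43 (3), Ncl (2) and Dkc1 (1). Of these 6 hosts 4 were higher in knockout, 0 lower and 2 not past the test in limma, and at an unadjusted p under 0.05 1 host, Ncl, was lower. Of the 26 other genes 4 were higher and 6 lower. Over the whole array 346 named genes enclose a small nucleolar RNA gene, of which 16.5% were higher and 20.5% lower, against 12.4% and 17.5% of the rest. The difference among the 32 genes was not tested.

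Genes of the same pathways that are not among the 32 were then counted in 7 lists, chosen by function. Of their 179 measured genes 43 were higher and 32 lower in knockout (24.0% and 17.9%), with a median change of 0.00. Both counts fell when single arrays were left out. The lower count was 20, 21 and 18 without knockout replicates 1, 2 and 3, and 16, 25 and 19 without wild-type replicates 1, 2 and 3. The higher count was 36, 30 and 30, and 30, 29 and 32, in the same order. Over all named genes the counts fell as well, to 1656 to 2009 higher and 2448 to 2759 lower. Chromosome 8 carries 11 of the 179 genes, and 10 of these 11 were higher. On the other chromosomes 33 of 168 genes were higher (19.6%) and 31 lower (18.5%). Outside chromosome 8 11.3% of all named genes were higher and 17.9% lower. Genes above the median level, chromosome 8 included, gave 21.5% and 26.5% over the whole array, while the lists were not filtered by level.

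**Figure D4:**
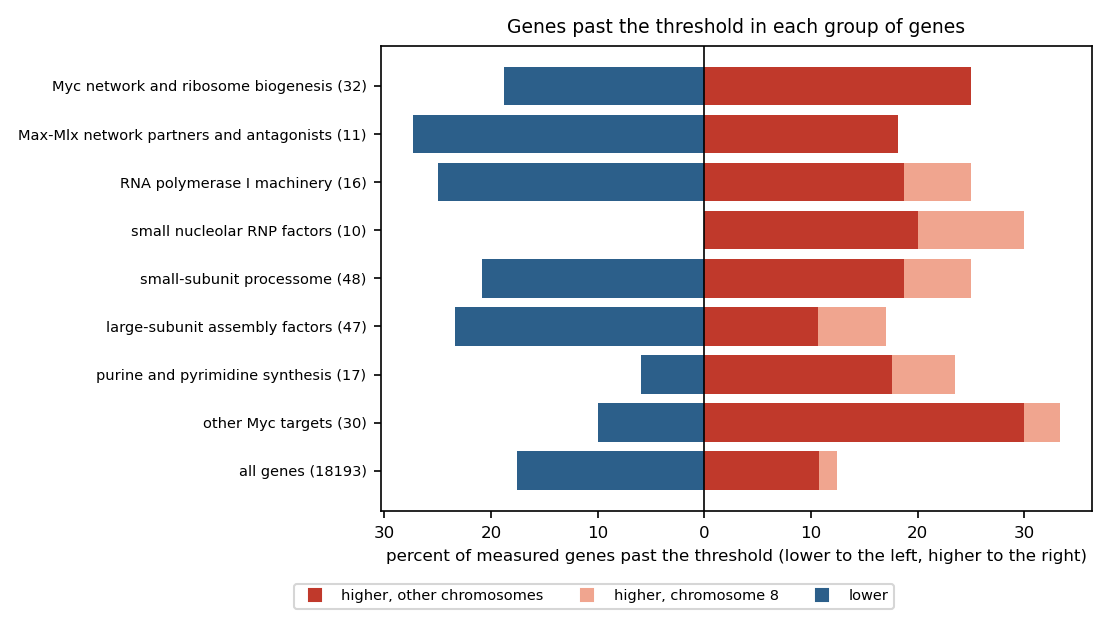
Percent of measured genes past the threshold in each group of genes (number measured in brackets), with bars to the right for genes higher in knockout, of which the pale part lies on chromosome 8, and bars to the left for genes lower in knockout. The 32 genes have no pale part, and the small nucleolar RNP factors have no bar to the left.

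Among 11 partners and rivals in the Max and Mlx network 2 were higher (18.2%) and 3 lower (27.3%). All named genes gave 12.5% and 17.5%, and those above the median level 21.5% and 26.5%. Mlx, the Max-like partner of the glucose-sensing factors Mlxip and Mlxipl, read 7.48, 7.48 and 7.53 in knockout and 7.01, 6.86 and 7.02 in wild type. It was 0.54 higher (limma adjusted p = 0.000937) and 0.56 higher on another bright probe set. Mlxip rose by 0.31, and Mlxipl read 5.34, 5.52 and 5.46 in knockout and 6.53, 6.26 and 6.24 in wild type, 0.90 lower on the log2 scale (limma adjusted p = 0.000805). Mxd4, a Max-binding repressor like Mxd1, read 4.76, 4.90 and 4.93 in knockout and 6.27, 5.97 and 6.28 in wild type. Mxd4 was lower by 1.31 on the log2 scale (limma adjusted p = 0.000249), with other bright probe sets from -0.56 to -0.01. The chromatin ATPase Ruvbl1 fell by 0.18.

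Of 16 further genes of RNA polymerase I and its factors 4 were higher (25%) and 4 lower (25%). The shares were 12.5% and 17.5% over all named genes, and 21.5% and 26.5% above the median level. Rrn3, the factor that makes the polymerase competent to start, rose by 0.29, and Taf1b and Taf1c, of the complex that selects its promoter, rose by 0.26 and 0.25. Of its subunit genes, Cd3eap fell by 0.28, Polr2e, shared with the other nuclear polymerases, by 0.23, and Polr1e by 0.22. The remaining called genes, named after their values were seen, are also subunit genes: Polr1d rose by 0.24 (limma adjusted p = 0.00900) and Polr2f fell by 0.18 (0.0287). The subunit genes Polr1c, Polr2h, Znrd1 and Twistnb did not pass. Taf1c lies on chromosome 8.

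Of 10 other small nucleolar RNP factors 3 were higher and 0 lower in limma, with 1 (Znhit6, chosen after its value was seen) lower at an unadjusted p under 0.05. Znhit3, an assembly factor of the methylation RNPs, read 8.67, 8.75 and 8.66 in knockout and 8.28, 8.24 and 8.20 in wild type, a rise of 0.46 (limma adjusted p = 0.000970). Naf1 and Nop10, an assembly factor and a core protein of the pseudouridylation RNPs to which Dkc1 belongs, rose by 0.28 and 0.22. Naf1 lies on chromosome 8. Without that chromosome 2 of 9 factors were higher (22.2%) and 0 lower, against 11.3% and 17.9% of all named genes outside it.

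Of 48 genes of the small-subunit processome 12 were higher (25%) and 10 lower (20.8%), against 12.5% and 17.5% of all named genes. Genes above the median level gave 21.5% and 26.5%. Nob1, the nuclease that finishes the small ribosomal RNA, rose by 0.53, Utp4 by 0.52 and the export factor Rrp12 by 0.50. Bysl fell by 0.44, the GTPase Bms1 by 0.37 and Wdr3 by 0.28. Nob1 and Utp4 lie on chromosome 8, and without that chromosome 9 of 45 genes were higher (20%) and 10 lower (22.2%). All named genes outside it gave 11.3% and 17.9%.

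Of 47 large-subunit factors 8 were higher (17.0%) and 11 lower (23.4%), against 12.5% and 17.5% of all named genes. Above the median level the shares were 21.5% and 26.5%. Nip7 rose by 0.68, Tma16 by 0.67 and Surf6 by 0.56, and the first pair lie on chromosome 8. Senp3, a nucleolar SUMO protease, read 11.02, 11.01 and 11.07 in knockout and 12.05, 12.05 and 12.04 in wild type, a fall of 1.01 on the log2 scale (limma adjusted p = 5.13e-05), or 2.02-fold, on 1 bright probe set. Eif6, which keeps the subunits apart, fell by 0.42, but another bright probe set of Eif6 read 0.20, and Ddx56 fell by 0.39.

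Of 17 further genes of nucleotide synthesis 4 were higher (23.5%) and 1 lower (5.9%), against 12.5% and 17.5% of all named genes. Those above the median level gave 21.5% and 26.5%. Dhodh, the enzyme after Cad in pyrimidine synthesis that sits in mitochondria, rose by 0.39 and lies on chromosome 8. Nme2, which makes nucleoside triphosphates, rose by 0.25, and Prps2, which supplies activated ribose, fell by 0.48. Uck2, a uridine kinase of the salvage route, was 0.77 higher on its brightest probe set (limma adjusted p = 0.000157), while its 4 other bright probe sets were all called lower, at -0.55 to -0.24. Of the 36 genes named from the lists, 16 had another bright probe set, and Uck2 was the only one with a call in the opposite direction.

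Of 30 other known Myc targets 10 were higher (33.3%) and 3 lower (10%), with a median change of 0.00. The shares were 12.5% and 17.5% over all named genes, and 21.5% and 26.5% above the median level. The difference from them was not tested. Srm, which makes spermidine, read 10.93, 10.91 and 10.94 in knockout and 10.12, 10.01 and 10.13 in wild type, a rise of 0.84 (limma adjusted p = 0.000128). Tmem97, a membrane protein of sterol transport, rose by 0.63. Odc1, which starts polyamine synthesis, rose by 0.49, with other bright probe sets at 0.07 and 0.38. The iron carrier receptor Tfrc fell by 0.37, and the mitochondrial factor Tfb2m and the translation helicase Eif4a1 fell by 0.18 each.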

How the data were processed

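Per the submitters' processing notes, RMA and Partek 6.5 were used by the authors, and the deposited values were read as log2, as judged from their range. RMA adjusts for background, aligns the distributions of arrays and combines probes into a value per probe set. The settings used here by the authors are unknown. The table held 45101 probe sets, of which 64 controls were set aside. Of the rest, 34945 carried 1 gene symbol, 932 several and 9160 none. A gene's value was that of its brightest probe set by mean over the arrays, giving 18193 genes, and dim genes were kept.

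Knockout and wild type, 3 arrays each, were fitted in limma 3.58.1 under R 4.3.3 (lmFit, then eBayes, two-sided). Adjustment was by Benjamini-Hochberg over all genes, or over all probe sets for single probe sets, at 0.05. The procedure was tested on simulated data. Of 50 genes changed by 0.25 on the log2 scale it called 2, of 50 changed by 0.5 it called 25, and of 50 changed by 1 all 50. It made 8 false calls. Far fewer genes were changed there than were called in these data, so the rates need not hold here. In that test small changes were mostly missed. The 32 genes, the lists and the tests were chosen with earlier results of these data known. The genes named are the 32, Sirt1 and, per list, up to 3 genes with the largest change past the threshold in each direction and no overlap of arrays. Any further gene that is named was picked with its values in view. Alternatives varied the scaling, the filter, the rule for probe sets, the variance model, the block, the threshold and the arrays included. Chromosomes and promoter sequences came from RefSeq on GRCm38.p6.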

Additional observations from a re-analysis of the deposited data

How the results depend on the processing

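Of 14 other settings, that without the genes of chromosome 8 was chosen after seeing the data. Over them, 427 of 448 values of the 32 genes kept their direction or stayed uncalled and kept their side of the threshold, and 6 of the 14 called genes (Max, Cad, Polr1b, Rrp1b, Dkc1 and Gnl3) kept their call in every setting. Gart turned to 0.17 with probe sets averaged, where Mycl and Polr1a also lost their calls and 3 of the 32 genes were lower in place of 6. This comes from averaging probe sets that differ. At an adjusted p under 0.01, 4 of the 32 genes were higher and 4 lower, and over all genes 1347 were higher and 2009 lower, against 2270 and 3192. The other pathway genes then gave 25 higher and 15 lower, against 43 and 32. Their lower count was 19 with arrays centred on medians and 49 without the dimmest genes, where fewer genes were tested. It was 50 with an intensity trend and robust variance. With single arrays left out the lower count was 16 to 25 and the higher count 29 to 36. Apart from the construction named, the cause was not tested. With the replicate number as a block 17 other pathway genes were lower, 7 of the 32 genes were higher and 6 lower, and Bop1 missed the threshold (limma adjusted p = 0.0539). Like-numbered arrays share only a number: their deviations from group means correlated at 0.0515, -0.0865 and 0.198, and 3 of 6 arrays correlated best with their own number. With single arrays left out, 7 to 8 of the 32 genes were higher and 5 to 6 lower. Ncl, Ppat, Npm1 and Rrs1, not called in the report, each passed in at least 1 setting. The dim probe sets of Mycl and Mxd1 lay below the median level of all probe sets (4.53). So did those of Polr1a that read 0.14 and 0.02, but not the one that read 0.28. The part of background signal in their values was not tested.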
